A study of Mus musculus with 6 samples.

Results

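The 8 genes described here, Itpripl2, Tmem159, Nsmce1, Gtf3c1, Taok2, Itgal, Hsd3b7 and Pycard, flank the Tnrc6a gene on mouse chromosome 7. They were taken from the 238 measured genes that lie within 10 Mb of Tnrc6a, out of 19938 genes measured in all, and they were chosen by the values seen in these same lungs. Their differences between the genotypes are therefore a description and carry no test. Expression was profiled in 6 whole lungs of mouse embryos at E18.5, each from a single embryo, on Affymetrix Mouse Gene 1.0 ST arrays. There were 3 Tnrc6a null lungs, homozygous for a gene trap that places β-galactosidase in Tnrc6a, and 3 lungs of WT littermates. The labels give both genotypes the C57Bl/6 strain background. The mutants were first made on a mixed background and then repeatedly backcrossed to C57BL/6.

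Tnrc6a encodes GW182, a scaffold protein that binds Argonaute and carries out the silencing of mRNAs by microRNAs. In a gene trap line the insertion and the DNA beside it on the same chromosome pass together to the offspring, and backcrossing replaces distant DNA sooner than DNA close to the selected allele. The null lungs all carry the trap on both homologues and the WT lungs on neither, so an effect of losing Tnrc6a and an effect of flanking DNA inherited with the trap cannot be told apart for any of the 8 genes. The sources used here do not give the strain of the embryonic stem cells, and the genotype of the flanking DNA was not measured. The lungs are bulk tissue, and fewer cells of a type and less RNA per cell cannot be told apart either.

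Seen from Tnrc6a, 2 of the 8 genes lay on the centromere side and 6 on the telomere side, and all 8 were within 5 Mb. Counted in measured genes, Itpripl2 was 61 and Tmem159 was 36 genes away on the centromere side. On the telomere side Nsmce1 was 10 genes away, Gtf3c1 13, Taok2 45, Itgal 68, Hsd3b7 93 and Pycard 103. The 8 genes belong to different pathways. Gtf3c1 encodes the largest subunit of TFIIIC, which binds the internal promoter of tRNA genes for RNA polymerase III, and Nsmce1 a RING-type subunit of the SMC5/6 complex of genome maintenance. Itgal encodes the alpha chain of the leukocyte integrin LFA-1, and Pycard the inflammasome adaptor ASC. Tmem159 encodes a partner of seipin in the assembly of lipid droplets, and Hsd3b7 a steroid dehydrogenase of bile acid synthesis and oxysterol metabolism. Taok2 encodes a Ste20-family kinase upstream of p38 signalling. Itpripl2 belongs to the small ITPRIP family, whose function is little known.

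RefSeq promoter windows (GRCm38.p6, which is C57BL/6J sequence) matched 6 of the 8 genes, with 250 bases before and 50 after a transcript start. Itgal and Tmem159 had no entry. The windows of 4 genes are printed because they show the kinds of promoter that the flanking genes carry, the CpG-rich windows of the neighbours Nsmce1 and Gtf3c1, whose differences had opposite signs, the intermediate window of Taok2, and the CpG-poor window of Pycard. Each runs 5′ to 3′ on the minus strand, at chr7:125491394-125491693 for Nsmce1, chr7:125707639-125707938 for Gtf3c1, chr7:126884918-126885217 for Taok2 and chr7:127993818-127994117 for Pycard. Capitals mark matches on either strand to TGACGTCA (the cAMP response element), GCGCATGC (the core of NRF1-type sites), CCGGAAG (the core of ETS-type sites) and GGGCGG (the GC box).
Nsmce1: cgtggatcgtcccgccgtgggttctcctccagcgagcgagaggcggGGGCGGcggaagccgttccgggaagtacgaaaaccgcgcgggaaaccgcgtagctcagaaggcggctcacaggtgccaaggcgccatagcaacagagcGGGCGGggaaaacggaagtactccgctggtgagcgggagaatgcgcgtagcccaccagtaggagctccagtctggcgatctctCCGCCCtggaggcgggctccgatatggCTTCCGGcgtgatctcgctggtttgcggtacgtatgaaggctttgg
Gtf3c1: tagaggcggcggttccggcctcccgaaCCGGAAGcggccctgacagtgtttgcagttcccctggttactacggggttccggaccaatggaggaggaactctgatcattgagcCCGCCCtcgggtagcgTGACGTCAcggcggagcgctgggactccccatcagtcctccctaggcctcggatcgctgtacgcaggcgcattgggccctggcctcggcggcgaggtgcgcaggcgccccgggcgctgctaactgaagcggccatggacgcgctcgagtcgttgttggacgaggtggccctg
Taok2: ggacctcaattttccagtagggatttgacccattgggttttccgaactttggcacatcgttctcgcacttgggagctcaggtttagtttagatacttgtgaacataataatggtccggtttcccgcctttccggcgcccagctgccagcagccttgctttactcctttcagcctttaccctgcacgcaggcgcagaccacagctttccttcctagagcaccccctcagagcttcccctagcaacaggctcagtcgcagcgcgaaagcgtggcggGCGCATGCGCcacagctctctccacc
Pycard: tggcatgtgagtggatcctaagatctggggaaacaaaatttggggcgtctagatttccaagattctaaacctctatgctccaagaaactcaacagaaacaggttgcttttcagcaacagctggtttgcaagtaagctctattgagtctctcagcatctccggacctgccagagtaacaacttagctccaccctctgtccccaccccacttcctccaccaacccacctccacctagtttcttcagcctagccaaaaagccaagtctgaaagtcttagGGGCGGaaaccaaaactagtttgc

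The Nsmce1 window held 35 CpG dinucleotides and the Gtf3c1 window 32, against a median of 7 over all 32851 windows of this kind. Taok2 had 16 and Itpripl2 14, and Hsd3b7 and Pycard had 3 each. A further RefSeq start of Nsmce1 had a window with 1 CpG. Only Gtf3c1 of the 6 matched genes carried TGACGTCA, found in 1.79% of all windows, and only Taok2 carried GCGCATGC, found in 2.71%. The 2 copies in Taok2 overlap, 1 on each strand. CCGGAAG stood in Gtf3c1 and Nsmce1 (8.86% of windows) and GGGCGG in 5 genes, all but Taok2 (35.7% of windows). CCAAT, which is not marked, was found in Gtf3c1, Nsmce1 and Taok2, for Nsmce1 in the CpG-poor window only (37.4% of windows), and TATAAA in none of the 6 (13.6% of windows). These matches describe the reference sequence. The sequence of the lungs was not read.

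The authors deposited 1 value on a log scale for each probe set and lung. The labels call the scale log2, but the base could not be settled from the values, so every difference below is the null mean minus the WT mean in deposited log units and no fold is given. Array medians ran from 5.01 to 5.03 in the null lungs and from 4.98 to 4.99 in the WT lungs. Lungs correlated across genes at 0.979 to 0.993, and Tnrc6a null replicate 3 correlated with WT replicate 1 at 0.992, above its 0.979 and 0.983 with the other null lungs. The 12 lung identity genes averaged 9.36, 9.43 and 9.27 in the null lungs and 9.35, 9.46 and 9.46 in the WT lungs. Of these, 8 were lower on average in null, among them the alveolar genes Aqp5 (-0.25, unadjusted p = 0.0338 from limma) and Ager (-0.16). Ager was the 1 gene of the 12 lower in every null lung, against 5.51% of all genes. The 4 higher on average were also alveolar genes, Sftpb (0.04), Sftpc (0.03), Lamp3 (0.01) and Napsa (0.007). Aqp5 was the 1 gene of the 12 at an unadjusted p under 0.05, against 2.96% lower and 2.46% higher of all genes.

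Tnrc6a itself had values of 5.45, 5.04 and 5.40 in the null lungs, against 7.38, 7.13 and 7.18 in the WT lungs. The groups lay far apart, by 1.68 at the nearest lungs. The difference was -1.93 (standard error 0.128, adjusted p = 0.00312 from limma), and Tnrc6a was the 1 gene of 19938 (0.00502%) past an adjusted p of 0.05. The adjusted p was 0.0552 in limma without WT replicate 3 and 0.551 by the methods' t-test on all lungs. The sources used here do not place the probes relative to the insertion.

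Of the 8 genes, 7 had a lower mean in the null lungs and 1, Nsmce1, a higher one. In 6 of the 8, Gtf3c1, Itgal, Pycard, Tmem159, Taok2 and Hsd3b7, every null lung was below every WT lung, which was so for 5.51% of all genes. None was higher in every null lung, against 4.67% of all genes. After adjustment over all genes 0 of the 8 passed in limma, while 7 of the 8 had an unadjusted p under 0.05, 6 of them lower and 1 higher, and 6 did by the methods' t-test. Over all genes the unadjusted share was 5.42% in limma (2.96% lower and 2.46% higher) and 5.53% by the methods' t-test. Because the genes were picked on this contrast, nothing is read from these counts.

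**Figure D1:**
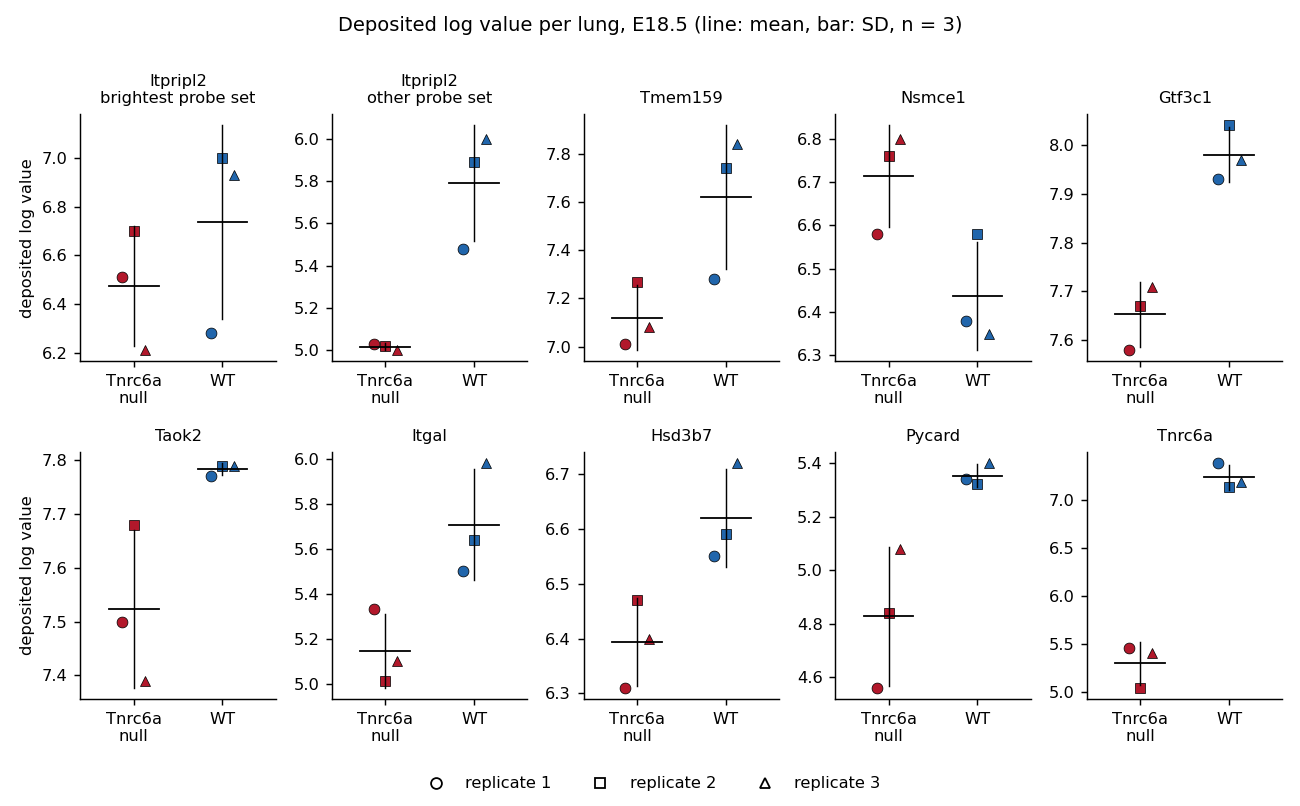
Deposited log value (y axis, own scale per panel) of the 8 genes, with both probe sets of Itpripl2, and of Tnrc6a, in the 3 Tnrc6a null lungs (red, left) and the 3 WT lungs (blue, right). Lines are means and bars SD. Gtf3c1, Taok2, Itgal, Hsd3b7, Pycard, Tmem159 and the other Itpripl2 probe set have no overlap between the genotypes, Nsmce1 is the gene with the higher null mean, and Tmem159 comes within 0.01 of touching.

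Gtf3c1 was measured at 7.58, 7.67 and 7.71 in the null lungs, against 7.93, 8.04 and 7.97 in the WT lungs. The 3 lungs of each genotype lay close together, and the highest null lung was 0.22 below the lowest WT lung. The means were 7.65 ± 0.067 in null and 7.98 ± 0.056 in WT (SD, n = 3 each), a difference of -0.33. Genes of like mean signal (bins of 10% of the genes) had a median difference of -0.06. When any 1 lung was left out, the difference stayed between -0.35 and -0.29, the narrowest range of the 8 genes relative to its size.

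Nsmce1, 3 measured genes from Gtf3c1, differed the other way. It had 6.58, 6.76 and 6.80 in the null lungs, against 6.38, 6.58 and 6.35 in the WT lungs. Null replicate 1 and WT replicate 2 had the same value of 6.58, and the other null lungs were above every WT lung. The means were 6.71 ± 0.117 in null and 6.44 ± 0.125 in WT (SD, n = 3 each), a difference of 0.28, and it was 0.23 to 0.35 with a lung left out. Without either of the 2 tied lungs the null values were all above the WT values.

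Itgal had 5.33, 5.01 and 5.10 in the null lungs, against 5.5, 5.64 and 5.98 in the WT lungs. It showed the largest difference of the 8 genes by their brightest probe sets, -0.56, with means of 5.15 ± 0.165 in null and 5.71 ± 0.247 in WT (SD, n = 3 each). WT replicate 3 stood highest, and without it the difference was -0.42. Pycard had 4.56, 4.84 and 5.08 in the null lungs, against 5.34, 5.32 and 5.40 in the WT lungs. The WT lungs lay within a narrow band and the null lungs were spread below it. The Pycard means were 4.83 ± 0.26 in null and 5.35 ± 0.042 in WT (SD, n = 3 each), a difference of -0.53, or -0.39 without null replicate 1, its lowest lung.

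Itgal encodes a leukocyte integrin chain and Pycard an inflammasome adaptor, so leukocyte marker lists are set beside both. Which cells of these lungs express Pycard was not tested. The 12 pan-leukocyte genes averaged 6.21, 6.27 and 5.90 in the null lungs, against 6.03, 6.47 and 6.45 in the WT lungs, and the 14 macrophage and monocyte genes 5.98, 6.01 and 5.65 in the null lungs, against 5.75, 6.18 and 6.25 in the WT lungs. In both lists null replicate 3 and WT replicate 1 were the low lungs of their genotype, and the genotypes overlapped. WT replicate 1 was also the lowest WT lung for Itgal, whereas the lowest null lung was replicate 2 for Itgal and replicate 1 for Pycard. Of the pan-leukocyte genes 11 of 12 were lower on average in null, with a median difference of -0.17, and of the macrophage and monocyte genes 13 of 14, with a median of -0.20. At an unadjusted p under 0.05, 1 pan-leukocyte gene (Vav1, difference -0.40) and 2 macrophage genes (Mrc1, -0.42, and Adgre1, -0.51) were lower and none of either list was higher, against 2.96% lower and 2.46% higher of all genes. Vav1, 1 of the 12, and Mrc1, 1 of the 14, were lower in every null lung than in every WT lung, against 5.51% of all genes. Itgal and Pycard were too, but they were chosen by their values in these lungs. Ptprc, the common leukocyte antigen, had 5.88, 6.01 and 5.17 in the null lungs, against 5.65, 5.86 and 5.98 in the WT lungs.

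The neutrophil list averaged 4.64, 4.51 and 4.26 in the null lungs, against 4.01, 4.52 and 4.69 in the WT lungs, with 6 of 12 genes lower on average. At an unadjusted p under 0.05 in limma, 1 neutrophil gene, Retnlg (difference 0.47), was higher and none was lower, against 2.46% higher and 2.96% lower of all genes. Retnlg was higher in every null lung than in every WT lung, as were 4.67% of all genes. The lymphocyte list averaged 3.72, 3.83 and 3.74 in the null lungs, against 3.62, 3.90 and 3.86 in the WT lungs, with 7 of 11 lower. No lymphocyte gene reached that p, and Cd2 (0.23) was higher in every null lung, as were 4.67% of all genes. No gene of these lists is listed at 0, and the lowest single value was 2.28 in the lymphocyte list. The part of leukocyte content in the Itgal and Pycard differences was not tested.

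**Figure D2:**
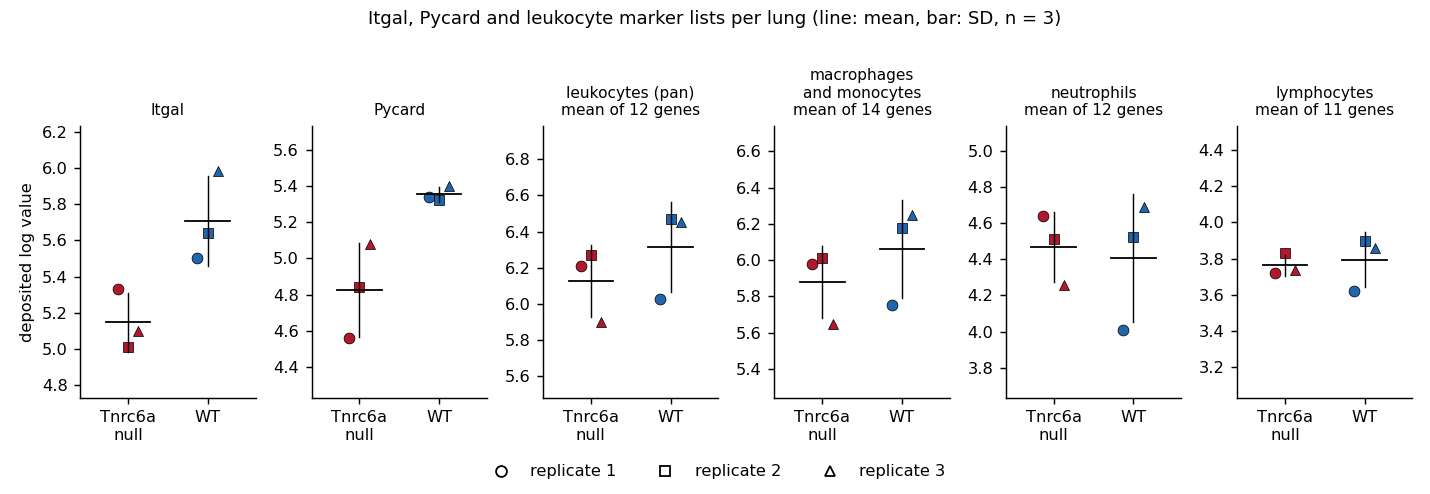
Deposited log value of Itgal and Pycard and the mean of each leukocyte marker list (y axis, each panel spanning the same range of the log scale) in the Tnrc6a null lungs (red, left) and WT lungs (blue, right). Lines are means and bars SD. The genotypes separate for Itgal and Pycard and overlap for the means of all 4 lists, in which null replicate 3 or WT replicate 1 is low. Itgal and Pycard were chosen by their values in these lungs, so nothing is read from this contrast.

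Tmem159 was measured at 7.01, 7.27 and 7.08 in the null lungs, against 7.28, 7.74 and 7.84 in the WT lungs. WT replicate 1 lay 0.01 above null replicate 2, so the genotypes only just failed to overlap, and after quantile normalization they overlapped. The means were 7.12 ± 0.135 in null and 7.62 ± 0.299 in WT (SD, n = 3 each), a difference of -0.50. The difference was -0.67 without WT replicate 1 and -0.39 without WT replicate 3. The authors also report lower Tmem159 in null lungs by qRT-PCR and name it as a microRNA target. The paper proposes that, in the lung, Tnrc6a keeps such targets stable rather than degrading them. Whether the lungs used for qRT-PCR were the ones on the arrays is not stated. Hsd3b7, the other gene of lipid metabolism, had 6.31, 6.47 and 6.40 in the null lungs, against 6.55, 6.59 and 6.72 in the WT lungs. The gap between its genotypes was 0.08, and the difference of -0.23 was the smallest of the 8 genes, with means of 6.39 ± 0.08 in null and 6.62 ± 0.089 in WT (SD, n = 3 each).

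Taok2 had 7.50, 7.68 and 7.39 in the null lungs, against 7.77, 7.79 and 7.79 in the WT lungs. Here too the WT lungs nearly coincided and the null lungs were spread below them. The means were 7.52 ± 0.146 in null and 7.78 ± 0.012 in WT (SD, n = 3 each), a difference of -0.26. In the annotation Taok2 overlaps the next gene, Tmem219, which had a difference of -0.15 (standard error 0.095) with overlapping genotypes.

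Itpripl2 was the 1 gene of the 8 with more than 1 probe set, and its 2 probe sets differed. The brightest had 6.51, 6.70 and 6.21 in the null lungs, against 6.28, 7.0 and 6.93 in the WT lungs. WT replicate 1 fell among the null lungs, so the genotypes overlapped, and the difference was -0.26, ranging from -0.49 without WT replicate 1 to -0.13 without null replicate 3 or without WT replicate 2. The other probe set had 5.03, 5.02 and 5.0 in the null lungs, against 5.48, 5.89 and 6.00 in the WT lungs. Its null lungs agreed within 0.03 of each other and its genotypes were 0.45 apart, and the difference was -0.77 and lay between -0.93 and -0.67 with a lung left out. The average of both probe sets was lower in every null lung.

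The lungs that were low differed between the genes. Null replicate 1 was the lowest null lung in 5 of the 8, and WT replicate 1 the lowest WT lung in 6. Without WT replicate 1 and null replicate 3, the closely correlated lungs of unlike genotype, 7 of the 8 genes were lower in both null lungs than in both WT lungs. The differences were then -0.38 for Gtf3c1, -0.64 for Itgal, -0.66 for Pycard, -0.65 for Tmem159, -0.36 for Itpripl2, -0.20 for Taok2 and -0.27 for Hsd3b7, and Nsmce1 kept its sign at 0.21.

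**Figure D3:**
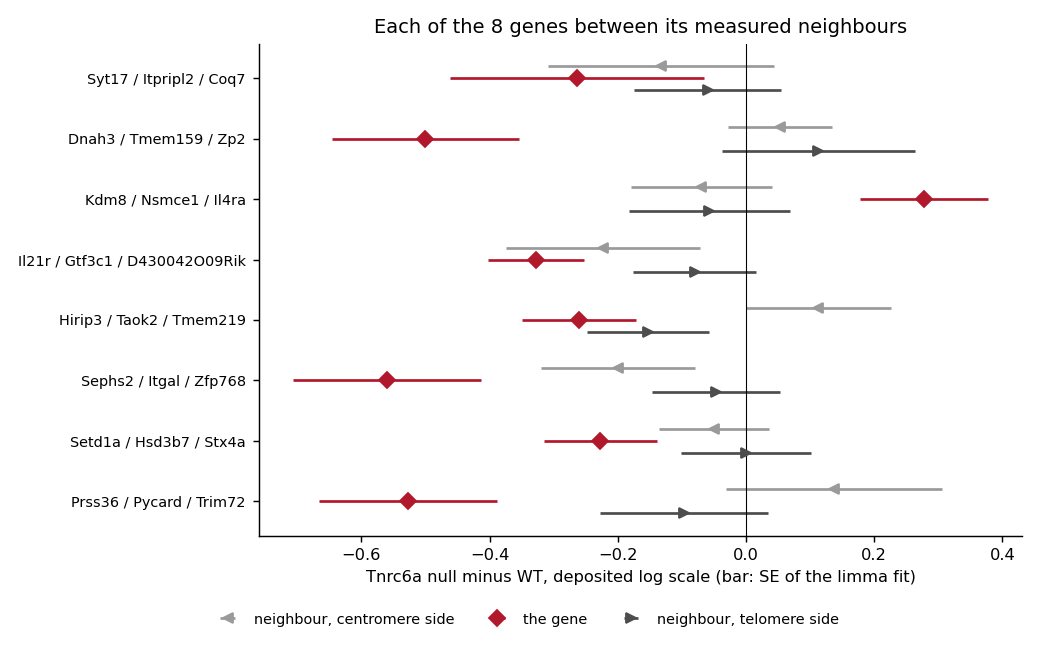
Difference Tnrc6a null minus WT (x axis, deposited log scale, bars are the standard error of the limma fit) for each of the 8 genes (red diamonds) and the measured gene next to it on the centromere side (light arrowheads) and on the telomere side (dark arrowheads). The 8 genes lie from -0.56 to 0.28, and each lies farther from 0 than both of its neighbours. The 8 were chosen by these values and the neighbours by position only, so nothing is read from this contrast.

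The genes next to the 8 were described whatever their values. Of these 16 neighbours, 11 were lower and 4 higher on average in null, and 1, Stx4a, had no difference, with a median difference of -0.06 and a median size of 0.09. None had an unadjusted p under 0.05 in limma or by the methods' t-test, against 5.42% and 5.53% of all genes. In none did the genotypes separate, against 10.2% of all genes. Among 16 genes such shares amount to few, so nothing is read from these counts. Beside Nsmce1, Kdm8 had a difference of -0.07 (standard error 0.110) and Il4ra, a cytokine receptor gene, -0.06 (standard error 0.125). Beside Gtf3c1, Il21r, a cytokine receptor gene, had -0.22 (standard error 0.151) and D430042O09Rik -0.08 (standard error 0.096).

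The same held along the rest of the row. Dnah3, an axonemal dynein gene, and Zp2, an egg coat gene, beside Tmem159 had 0.05 and 0.11, each less than its standard error. Beside Itgal, Sephs2 had -0.20 (standard error 0.120) and Zfp768 -0.05. Beside Pycard, Prss36 had 0.14 and Trim72 -0.10, both below their standard errors. Beside Hsd3b7, the H3K4 methyltransferase gene Setd1a had -0.05 and the syntaxin gene Stx4a 0.00, and beside Itpripl2, Syt17 had -0.13 and Coq7, of ubiquinone synthesis, -0.06. Hirip3, on the other side of Taok2, had 0.11. The 3 nearest measured genes on each side of Tnrc6a, Prkcb, Cacng3, Rbbp6, Slc5a11, Arhgap17 and Lcmt1, had differences from -0.15 to 0.05. None of them reached an unadjusted p under 0.05 in limma, against 5.42% of all genes, and nothing is read from this count.

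**Figure D4:**
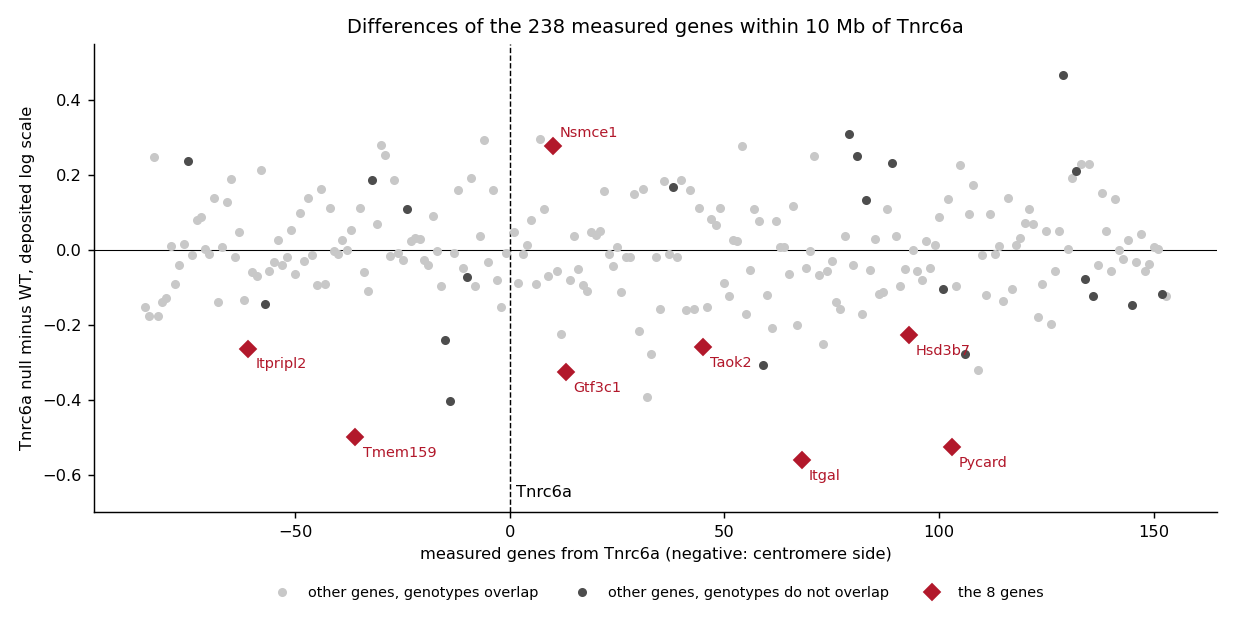
Difference Tnrc6a null minus WT (y axis, deposited log scale) of the 238 measured genes within 10 Mb of Tnrc6a, by their order from it (x axis, measured genes). Red diamonds are the 8 genes, dark points other genes whose genotypes do not overlap, light points the rest, and Tnrc6a itself (-1.93) is not drawn. Itgal, Pycard and Tmem159 have the 3 lowest differences of the window, and Nsmce1 lies among the higher ones.

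Across all 238 genes within 10 Mb, 10 (4.2%) were lower and 4 (1.68%) higher at an unadjusted p under 0.05 in limma. Over all genes these shares were 2.96% and 2.46%. Of the 14 genes of the window at that p, 7 were among the 8 genes, and none of the 238 passed an adjusted p of 0.05 in limma. By the methods' t-test 17 had a p under 0.05, 12 (5.04%) lower and 5 (2.1%) higher, against 3.14% and 2.39% of all genes. After median centring 18 were lower and 3 higher, with shares of 5.34% and 1.58% over all genes. The count of lower genes was 18 (7.56%, against 6.44% of all genes) without WT replicate 1 and 6 (2.52%, against 1.39%) without WT replicate 3. The median difference was -0.01, and 27 genes (11.3%) had no overlap, against 10.2% of all genes. Among the 143 genes of the window above the median signal, 9 were lower and 3 higher, shares of 6.29% and 2.1%, against 5.25% and 1.51% of all such genes. The share at an unadjusted p under 0.05 was 7.69% of the 39 genes within 2.5 Mb, 6.92% of the 130 genes at 2.5 to 5 Mb, 2.9% of the 69 genes at 5 to 10 Mb and 10.8% of the 380 genes at 10 to 20 Mb, where 28 of the 41 such genes were higher and 165 of the genes were olfactory or vomeronasal receptor genes. By the methods' t-test 20 of these 380 genes had a p under 0.05, against 5.53% of all genes. Beyond 20 Mb on chromosome 7 the share in limma was 4.84%. The median signal at 10 to 20 Mb was 4.14, against 5.83 within 10 Mb.

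**Figure D5:**
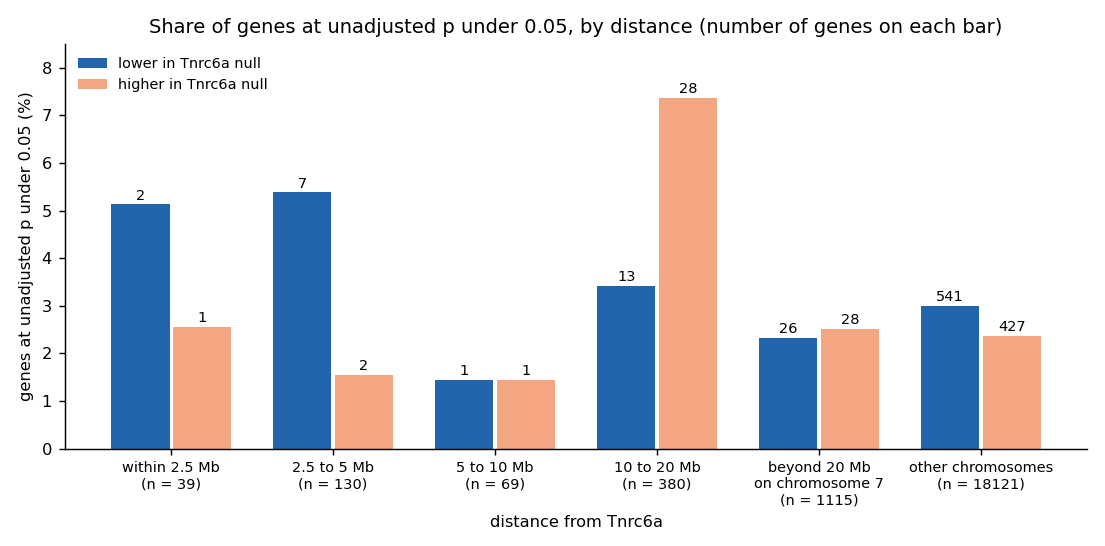
Share of genes at an unadjusted p under 0.05 in limma (y axis, %), lower (blue) and higher (orange) in Tnrc6a null, by distance from Tnrc6a (x axis), with the number of genes on each bar. Lower genes outnumber higher ones within 5 Mb, 9 against 3, and higher ones outnumber lower ones at 10 to 20 Mb, 28 against 13. Of the 9 lower, 6 are among the 8 genes picked on this contrast, as is 1 of the 3 higher. Over all genes the shares were 2.96% lower and 2.46% higher, and 5.25% and 1.51% above the median signal. The median signal was 5.77 within 5 Mb and 4.14 at 10 to 20 Mb, so nothing is read about distance.

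Apart from the 8, the genes of the window with the smallest unadjusted p among those without overlap included the epithelial sodium channel genes Scnn1b and Scnn1g, which are adjacent on the centromere side. Scnn1b had 7.15, 7.35 and 7.07 in the null lungs, against 7.46, 7.67 and 7.65 in the WT lungs, a difference of -0.40 (adjusted p = 0.89 from limma), and Scnn1g had a difference of -0.24. Itgax, the integrin alpha chain of dendritic cells and 3 measured genes from Pycard, had 3.86, 3.79 and 3.90 in the null lungs, against 4.22, 4.0 and 4.16 in the WT lungs. Cd2bp2 (-0.31) and Gde1 (-0.14) were also lower in every null lung. The long noncoding RNA 1700008J07Rik (0.31), the small nucleolar RNA Snora30 (0.25), 4933402N03Rik (0.47), Calcb (0.24) and Ctf2 (0.23) were higher in every null lung. All of these had an adjusted p of 0.89 in limma. At the edges of the window, Arntl and Ctbp2 just inside 10 Mb had -0.15 and -0.12, and Rassf10 and Tex36 just outside had 0.02 and 0.25.

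The working partners of the 8 gene products were measured as well, 93 genes in 8 lists. At an unadjusted p under 0.05, 4 (4.3%) were lower and none was higher, against 2.96% lower and 2.46% higher of all genes, and the median difference was -0.02. By the methods' t-test 5 passed, and none did after adjustment over all genes in limma. The count was 10 without WT replicate 1, 2 without null replicate 1 or without WT replicate 2, and 1 without WT replicate 3, and over all genes the shares lower and higher were 6.44% and 2.24%, 2.07% and 1.6%, 1.1% and 1.98%, and 1.39% and 1.96% in these 4 fits.

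For the partners of Gtf3c1, 0 of 20 measured genes of TFIIIC and RNA polymerase III had an unadjusted p under 0.05 in limma, 10 were lower and 9 higher on average, and the median difference was -0.005. The smallest p were those of the RNA polymerase III subunit gene Polr3g (difference 0.27) and of Gtf3a (0.12), which encodes the 5S gene factor. For Nsmce1, 0 of 8 genes of the SMC5/6 complex reached that p, and 7 of them were higher on average. Nsmce2, the SUMO ligase of the complex, had 7.04, 6.69 and 7.15 in the null lungs, against 6.86, 6.65 and 6.33 in the WT lungs, which overlap, and Nsmce4a, a kleisin subunit, had a difference of -0.18.

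For Pycard, 7 of 13 inflammasome genes were lower on average and 1 was lower at an unadjusted p under 0.05 (2.96% of all genes). This was Nek7, the NLRP3-binding kinase, with 6.87, 6.82 and 6.71 in the null lungs, against 7.10, 7.02 and 7.15 in the WT lungs, a difference of -0.29 (adjusted p = 0.89 from limma), while Casp4 had 0.37 with overlapping genotypes. For Itgal, 0 of 13 genes of LFA-1 partners and leukocyte integrins reached an unadjusted p under 0.05 and 10 were lower on average. Itgb2, the beta chain that pairs with Itgal, had 5.87, 6.00 and 5.31 in the null lungs, against 5.58, 6.40 and 6.27 in the WT lungs. Its genotypes overlapped. Those of Itgal did not, but Itgal was chosen by its values in these lungs, so nothing is read from the contrast. The smallest p of that list were those of Itgax, given above, and of the talin gene Tln1 (difference -0.14).

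For Tmem159, 9 of 15 genes of seipin and lipid droplets were lower on average and 1 was lower at an unadjusted p under 0.05 (2.96% of all genes). This was the triglyceride synthesis gene Dgat1, with 6.88, 6.87 and 6.75 in the null lungs, against 6.89, 7.11 and 7.15 in the WT lungs, while Plin5 had a difference of 0.24. The seipin gene Bscl2 had a difference of 0.01 (standard error 0.121). For Hsd3b7, 7 of 14 genes of oxysterol and bile acid synthesis were lower on average and 2 were lower at an unadjusted p under 0.05. These were the sterol 27-hydroxylase gene Cyp27a1, with 5.24, 5.56 and 4.99 in the null lungs, against 5.38, 5.86 and 5.99 in the WT lungs, which overlap, and the peroxisomal oxidase gene Acox2 (difference -0.23), both at an adjusted p of 0.89 in limma. For Taok2, 0 of 9 genes of TAO kinases and the p38 pathway reached an unadjusted p under 0.05, and 8 were lower on average. Mapk14, which encodes p38 alpha, had a difference of -0.18 and Mapkapk2 -0.09. For Itpripl2, the 1 measured relative, Itpripl1, had -0.15.

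Finally, the gene most like each of the 8 was sought among 14954 genes (those in the upper 75% of mean signal), by the root mean square difference of the 6 lungs after the mean of each gene was subtracted. None of the 8 was the nearest to another of them. For Gtf3c1 it was Ttyh3 on chromosome 5 (0.033), for Taok2 the nonmuscle myosin gene Myh9 on chromosome 15 (0.031) and for Hsd3b7 Tcirg1, a proton pump subunit gene on chromosome 19 (0.022). Nsmce1 was most like Degs2 on chromosome 12 (0.028), Itpripl2 most like Gpr155 on chromosome 2 (0.028) and Pycard most like Rsph1, a cilium gene on chromosome 17 (0.085). Tmem159 was most like Cyp2e1 (0.058), which lies on chromosome 7 and beyond 10 Mb. Itgal had the least close match, Try5 on chromosome 6 (0.115). The same 6 lungs underlie all of these values, so they are a description of the profiles.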

How the data were processed

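Whole lungs of 3 Tnrc6a null and 3 WT embryos were profiled, and genotype and replicate came from the sample labels. The authors deposited log values that the labels call log2, 1 per probe set and lung. MAS5 is named in the submitters' processing notes, with the version and settings not given in the sources used here. Without scanner data, signal over background was not assessed, and the number of arrays limits the precision.

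Of 35045 probe sets, 21789 carried 1 gene symbol, 1621 several and 11635 none. Symbols were updated by Entrez ID to GRCm38.p6, which also gave the gene order and the distances in Mb. The build behind the array annotation is not named, so gene coordinates are not printed. The brightest probe set stood for a gene (999 of 19938 genes had several), and no probe set with several symbols named any of the 8 genes. limma 3.58.1 in R 4.3.3 was fitted to all genes (lmFit, eBayes with trend, Tnrc6a null minus WT, Benjamini-Hochberg adjustment, threshold 0.05). Differences of the 8 genes carry no test. On simulated arrays the fit was tested first. Tables and plots used Python 3.11.15, pandas 2.3.3 and matplotlib 3.10.9.

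The labels pair no null lung with a WT lung, and p-values measure the spread between these lungs. The 8 genes, the gene lists and the tests were chosen with earlier results of these data known. Other genes were named by rule: the 3 measured genes nearest to Tnrc6a on each side, the measured genes next to each of the 8 and at the 10 Mb limits, the 10 others within 10 Mb with the smallest p among those whose genotypes did not overlap, up to 2 genes of smallest p per partner list, and the gene most like each of the 8. Bscl2 and Itgb2, the cell type marker genes named and the receptor genes at 10 to 20 Mb were picked after their values were seen. Alternatives were median centring, quantile normalization, probe set means, leaving out dim genes, other eBayes settings, array weights, blocks, the methods' t-test, distances of 5 Mb and 20 Mb, and leaving out lungs.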

Additional observations from a re-analysis of the deposited data

How the results depend on the processing

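The differences of the 8 genes kept their sign and moved by less than 1 SD of the lungs in all 104 values under 13 alternatives. Some of these values could not move, and others could not move by as much as 1 SD. Both fits with a block held the genotypes in equal number in each block, which leaves the differences as they were. Probe set means cannot change the 7 genes with 1 probe set. Leaving out 1 lung of 3 cannot move a difference by 1 SD of the lungs. Median centring moved every gene alike, by less than the smallest SD (0.061, Gtf3c1). Scaling moved the median of all genes to -0.02 (quantile normalization) and -0.04 (median centring). The number of the 8 lower in every null lung was 6 to 7 with a lung left out, 7 with the mean of probe sets, and 5 after quantile normalization, which ended the separation of Tmem159 and separated Nsmce1 upwards. The difference of Tnrc6a was -2.01 to -1.80 with a lung left out, and by the methods' t-test it was -1.93 with an adjusted p of 0.551. Within 10 Mb, 10 genes were lower and 4 higher at an unadjusted p under 0.05. With a lung left out these counts were 6 to 18 lower and 2 to 4 higher, and the 4 partner genes became 1 to 10. Median centring gave 18 lower genes and 8 partner genes, and array weights 7 higher genes (2.94%, against 5.21% of all genes) and 11 partner genes. The replicate block gave 2 higher genes and 2 partner genes. Same-numbered lungs deviated together at -0.295, 0.361 and -0.162. Deviations within 3 lungs are not independent, so these values do not settle whether the replicate numbers pair the lungs. Blocking null replicate 3 with WT replicate 1 gave 20 lower genes, 9 higher genes and 13 partner genes, and leaving both out gave 20 lower genes and 13 partner genes. Over all genes that block called 8.42% lower and 6.48% higher, and leaving both out 8.74% and 5.78%. A distance of 20 Mb, with 618 genes, gave 23 lower and 32 higher. Apart from the different number of genes or lungs, the causes were not tested. Each genotype has 3 arrays, which limits the precision.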
